A study of Rattus norvegicus with 8 samples.

Results

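The axon guidance ligands and receptors are the secreted and membrane-bound proteins that steer growing axons. They were taken from both tables by gene symbol alone: semaphorins of classes 3 to 7, plexins, neuropilins, ephrins, Eph receptors, Slits, Robos, netrins and netrin-G proteins, Unc5 receptors and Dcc. The symbols picked out 64 of the 26405 genes listed, 36 ligands and 28 receptors, and all 64 had reads in both tables. A mean normalized count of at least 10 was reached by 46 of them in axons and by 44 in cell bodies. A further 3 identifiers carry no symbol in the tables but are Epha5, Sema6a and Ephb4 in RefSeq, and they are not counted here.

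The RNA came from embryonic rat hippocampal neurons cultured 10 to 14 days in microfluidic chambers, where axons cross narrow grooves into a compartment of their own. Soluble oligomeric Abeta(1-42), the amyloid peptide of Alzheimer's disease, or vehicle was given to the axons alone for 24 h, and RNA was then taken separately from the axonal and the cell body compartment. The 8 samples form 4 groups of 2: axons Abeta, axons control, soma Abeta and soma control, where soma samples of either kind had no peptide applied to the cell bodies themselves. Nothing in the labels says that duplicates are separate cultures, and the spread behind each p-value may then be technical. The authors' deposited tables hold 1 comparison of treatments per compartment and do not name the numerator. A value above 0 is therefore called the positive side and one below 0 the negative side, and neither is named as Abeta or vehicle.

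Axon guidance works through paired cues and receptors at the growth cone. Most class 3 semaphorins bind neuropilins, which signal through plexins, and ephrins bind Eph receptors between touching cells, with signals in both directions. Slits repel axons through Robos, and netrins attract them through Dcc or repel them through Unc5 receptors. In the hippocampus the same molecules also take part in dendrite growth and synapse formation, and some guidance receptors and their effectors are known to be made from mRNA inside axons.

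Read counts of each library were recovered from the decimals of the deposited means, 4 libraries per table, 2 on each side. They cannot be matched to sample titles, are numbered within their side by size factor (1 for the larger), and enter no test. Where a gene has 4 values, the positive-side libraries come first and the negative-side ones follow after "against". Reads in the genes so recovered numbered 210735 to 399194 in an axonal library and 241897 to 3391181 in a somatic one. A count of 0 allows up to 3 reads, which is 2.27 to 4.05 normalized counts in axons and 0.802 to 10.1 in soma, for counting error only. All 9 measured neuron markers had reads in both tables, with summed means of 705 in axons and 5338 in soma. In axons they summed to 678 and 758 normalized counts against 450 and 933, with 4 of the 9 fold changes above 0. The 3 measured markers of nuclear and dendritic RNA also had reads in both, with summed means of 219 in axons and 567 in soma. The part of such RNA in the axonal values was not tested. Markers of other cells were also present in the axonal table. An adjusted p was given to 7 of 9 astrocyte and 3 of 8 fibroblast markers. Of these, 6 astrocyte and 2 fibroblast markers passed the authors' adjusted p of 0.05 on the positive side, against 8.78% of all 1321 genes with one. The 7 recovered astrocyte markers summed to 1011 and 1136 normalized axonal counts against 243 and 446. The 8 fibroblast markers summed to 392 and 808 against 181 and 199, a sum carried by Col1a1 (221 and 497 against 80.9 and 52.7) and Col1a2 (92.97 and 238 against 8.40 and 35.1), while the other 6 had fold changes below 0 and the list median was -0.26. The 8 microglial markers summed to 65.8 and 27.4 against 118 and 166, with 7 of the 8 below 0 and a median of -1.11. The 6 endothelial and mural markers summed to 42.3 and 25.8 against 81.9 and 54.0, with 0 of the 6 above 0 and a median of -0.92. The 8 oligodendrocyte lineage markers summed to 76.3 and 50.1 against 94.5 and 39.2, with 4 of the 8 above 0 and a median of 0.07. None of the markers in these last 3 lists has an adjusted p. The part of these cells in the values below was not tested, and in bulk RNA fewer cells of a type and less RNA per cell cannot be told apart.

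The first comparison asks whether guidance transcripts in the axonal compartment differ between axons given Abeta and axons given vehicle. None was called: 0 of the 64 had an adjusted p under 0.05 in the authors' deposited table (DESeq2, Benjamini-Hochberg). Only 9 of the 64 have an adjusted p at all, since the table gives one only at a mean of at least 44.8, and these 9 lay between 0.239 and 0.986. Among all 1321 genes with an adjusted p, 23.0% were called, 8.78% with a positive and 14.2% with a negative fold change. At an unadjusted p under 0.05 there was 1 member, Robo3, which is 1.56% of the members against 4.45% of all 23879 genes with reads. Log2 fold changes in the authors' deposited table ran from -1.74 for Sema3g to 1.11 for Ntng2, with 27 above 0 and 37 below, and standard errors of 0.47 to 1.06.

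**Figure D1:**
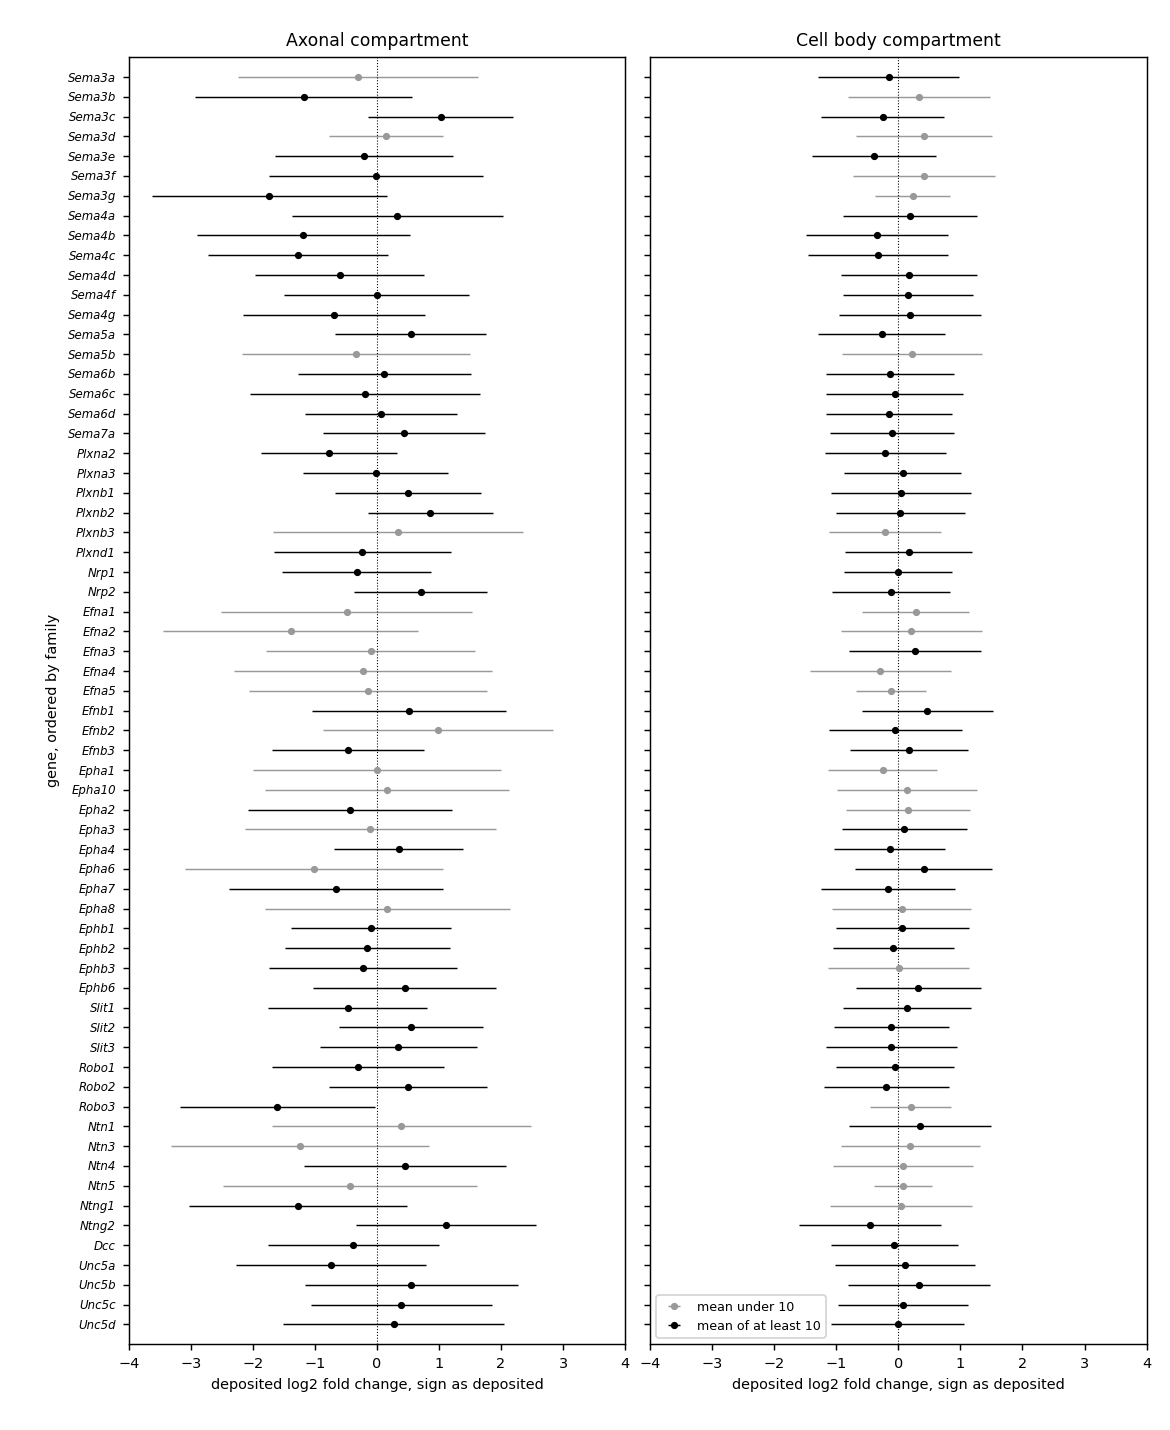
Deposited log2 fold change of each of the 64 guidance genes (x axis, sign as deposited, bars are 95% intervals from the deposited standard errors) in axons (left) and cell bodies (right), with genes (y axis) ordered by family. Grey points have a mean normalized count under 10; in axons the interval of Robo3 alone lies clear of 0, and in cell bodies every interval spans 0.

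Counted by library, the 2 sides did not overlap for 21 of the 46 members with an axonal mean of at least 10, 10 with the positive side higher and 11 with the negative side higher. The 21 are 45.7% of the 46, against 49.4% of all recovered genes at that mean (30.7% positive, 18.7% negative). The median deposited log2 fold change of the 46 was -0.06, against 0.15 for all genes with such a mean. Genes abundant in soma (a mean there of 100 or more) had a median of 0.44 in the axonal table. Values between 0 and 0.44 thus lie below that shift. Above it lay 12 of the 46 members (26.1%), against 34.5% of all genes with an axonal mean of at least 10. A somatic mean as high as that of the shift's genes was reached by 15 of the 64 members.

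Among the secreted class 3 semaphorins, Sema3c had the highest mean normalized count in axons, with 107 and 99.4 normalized counts against 21.0 and 74.3. Both positive-side values were higher, and the authors' deposited table gives a log2 fold change of 1.03 ± 0.60 (SE) with an adjusted p of 0.239. Sema3g lay the other way, at 6.80 and 0 normalized counts against 17.9 and 20.3. Its log2 fold change in the authors' deposited table was -1.74 ± 0.97 (SE, p = 0.0727), with no adjusted p at so low a mean. Sema3b, at 6.80 and 4.70 against 15.8 and 17.6, also had both negative-side libraries higher (the authors' log2 fold change -1.18 ± 0.89, SE, p = 0.186). Sema3e overlapped between sides, at 15.1 and 34.4 against 19.96 and 39.2 normalized counts. Sema3d was near the limit of detection, with 1 axonal read in all.

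The membrane-bound semaphorins of class 4 signal mainly through B plexins. Their 6 members had axonal means of 12.4 to 27.0, and 5 of the 6 deposited log2 fold changes were below 0, with a median of -0.65. Above the shift of 0.44 lay 0 of the 6, but that shift is of genes with a somatic mean of 100 or more. These 6 had somatic means of 21.2 to 58.3. All genes with a somatic mean from 10 to 50 had a median of -0.006, and those from 50 to 100 had 0.25. Sema4c had 17.4 and 9.39 normalized counts against 25.2 and 49.97. The sides did not overlap, and its log2 fold change in the authors' deposited table was -1.27 ± 0.74 (SE, p = 0.0840). Sema4b and Sema4d also had both negative-side libraries higher, while Sema4a had both positive-side libraries higher and Sema4f and Sema4g overlapped. In classes 5 to 7, 4 of the 6 log2 fold changes were above 0 but 1 above the shift of 0.44, within -0.34 to 0.54. Their somatic means ran from 6.20 to 161, so the shift is not of like genes for all 6. No sides were separated. Sema5a, a transmembrane semaphorin with thrombospondin repeats, had 63.5 and 51.6 against 52.5 and 23.0 normalized counts (adjusted p 0.585), and Sema6d, a ligand of A plexins, had 38.6 and 40.7 against 44.1 and 31.1.

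The semaphorin receptors drew many of the axonal guidance reads, 4 of the 6 plexins and 1 of the 2 neuropilins having a mean high enough for an adjusted p. Plxnb2, a receptor of class 4 semaphorins, had 90.7 and 131 normalized counts against 59.9 and 58.1. Both positive-side values were higher, with a log2 fold change in the authors' deposited table of 0.86 ± 0.51 (SE) and an adjusted p of 0.256. Plxna2, which pairs with neuropilins and binds class 6 semaphorins, had 76.3 and 54.8 against 65.1 and 170 normalized counts. Its sides overlapped because 1 negative-side library was the highest and the other lay between the positive-side values (the authors' log2 fold change -0.78 ± 0.56, SE, adjusted p 0.365). Plxna3 was nearly level, at 35.5 and 62.6 against 52.5 and 47.3 (adjusted p 0.986). Nrp2, the receptor of Sema3c and Sema3f, had 73.3 and 85.3 against 44.1 and 49.97 normalized counts, with both positive-side libraries higher. Its log2 fold change in the authors' deposited table was 0.70 ± 0.54 (SE) with an adjusted p of 0.398. Nrp1, the receptor of Sema3a, had 39.3 and 33.7 against 41.0 and 52.7, both negative-side values being higher by a small margin (the authors' log2 fold change -0.32 ± 0.61, SE, p = 0.595).

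Ephrins A, which are tethered to the membrane by a lipid anchor, had few axonal reads, all 5 with means under 10, from 0.903 to 5.05. Efna2 had 0.756 and 2.35 normalized counts against 15.8 and 1.35, so that 1 library held most of its reads. Efna4 had a mean of 2.75, and Efna3 had no read in 1 library of each side. The transmembrane ephrins B had means of 9.05 to 40.1. Efnb1 had 16.6 and 25.04 normalized counts against 13.7 and 13.5, with both positive-side libraries higher (the authors' log2 fold change 0.51 ± 0.80, SE, p = 0.521). Efnb3 had 40.1 and 25.8 against 43.1 and 51.3, with both negative-side libraries higher by less than 2-fold (the authors' log2 fold change -0.47 ± 0.63, SE, p = 0.455).

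Of the Eph receptors, Epha4 had the highest mean count in both compartments. This receptor of both ephrin classes, known in adult hippocampus from dendritic spines, had 80.1 and 97.8 normalized axonal counts against 52.5 and 85.1. The sides overlapped, with a log2 fold change in the authors' deposited table of 0.35 ± 0.53 (SE) and an adjusted p of 0.686. Epha2 had 15.1 and 8.61 against 21.0 and 13.5, Epha7 had 12.8 and 5.48 against 22.1 and 10.8, and both overlapped. Epha3 had 8.31 and 2.35 against 10.5 and 1.35 normalized counts, again without a separation of sides. The 4 Eph B receptors stood between means of 21.1 and 32.4, and their log2 fold changes were within -0.22 to 0.44. Ephb1 had 28.0 and 34.4 against 29.4 and 37.8, and Ephb2 had 28.0 and 29.0 against 24.2 and 40.5. Ephb3 had 18.1 and 20.3 against 33.6 and 12.2. Ephb6, which lacks kinase activity, was the one whose sides did not overlap, at 26.5 and 23.5 against 14.7 and 20.3 normalized counts (the authors' p = 0.553).

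All 3 Slits were present in axons at means of 33.7 to 54.6. Slit2 had 54.4 and 77.5 normalized counts against 56.7 and 29.7 (adjusted p 0.562). Slit3 had 50.6 and 45.4 against 19.96 and 54.0, and both genes overlapped between sides. In RefSeq (assembly GRCr8) Slit2 and Slit3 each enclose a gene of the same microRNA, shown here because both Slit hosts carry it. Its mature sequence, with the seed (bases 2 to 8) in capitals, reads as follows.
rno-miR-218a-5p: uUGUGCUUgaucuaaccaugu
The hairpin gene inside Slit3, Mir218-2, had 0 axonal reads and 1 somatic read of its own, which does not measure the mature form.

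The Slit receptors Robo1 and Robo2 had axonal means of 25.4 and 33.9. Robo1 had 18.9 and 25.8 normalized counts against 27.3 and 29.7, with both negative-side libraries higher, and Robo2 had 41.6 and 39.1 against 30.5 and 24.3, with both positive-side libraries higher. Neither passed an unadjusted p of 0.05 (0.666 and 0.444). Robo3, a divergent family member known for midline crossing, had 18.9 and 2.35 normalized counts against 50.4 and 31.1. Both negative-side libraries were higher, and its log2 fold change in the authors' deposited table, -1.60 ± 0.80 (SE, p = 0.0458), was the one member value with an unadjusted p under 0.05. No adjusted p is given for it, and adjusted over every gene with reads its p was 0.993. Robo3 overlaps Robo4 in RefSeq, so reads of the 2 genes may not have been told apart. Only 2 reads of Robo3 were found in soma and 1 of Sema3g. The 5473 genes recovered without any somatic read took 3.02% and 1.32% of the axonal reads recovered on the positive side against 6.14% and 5.08%, and the part of such reads in the values of Robo3 and Sema3g was not tested.

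The netrin family had axonal means of 2.37 to 23.8, Ntn1 with an axonal mean of 3.62 and Ntn4, a basement membrane netrin, with 17.1. Ntn4 had 19.7 and 21.1 normalized counts against 22.1 and 5.40. Ntng2, a lipid-anchored netrin-G that binds a synaptic adhesion partner and not Dcc, had 29.5 and 38.3 against 17.9 and 9.45. Both positive-side libraries were higher, with the highest log2 fold change of the 64 members in the authors' deposited table (1.11 ± 0.74, SE, p = 0.133). Ntng1 lay the other way, at 3.78 and 7.83 against 24.2 and 12.2 (the authors' log2 fold change -1.27 ± 0.89, SE, p = 0.154). The netrin receptor Dcc had 37.0 and 15.7 against 44.1 and 27.0 normalized counts. Unc5a had 22.7 and 7.83 against 19.96 and 36.5, and Unc5c had 18.9 and 39.1 against 28.4 and 13.5. These 3 receptors overlapped between sides.

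**Figure D2:**
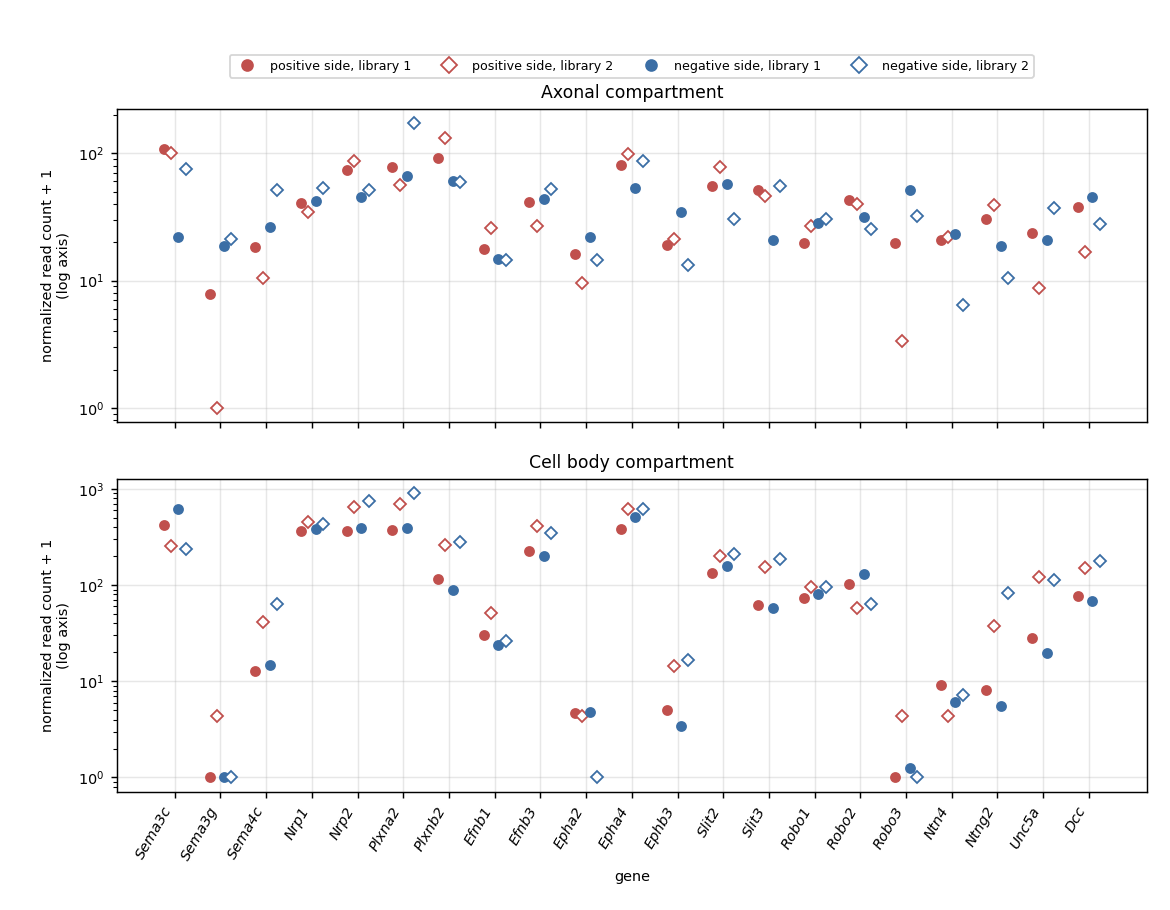
Normalized read count plus 1 (y axis, log axis) of 21 guidance genes (x axis) in each recovered library of the axonal (top) and cell body (bottom) compartment, red for the positive and blue for the negative side, circles for library 1 and diamonds for library 2. In axons Sema3c, Nrp2, Plxnb2 and Ntng2 have both red points above both blue ones and Robo3, Sema3g and Sema4c the reverse, while in cell bodies circles and diamonds separate more often than colours.

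The sign of the axonal fold change varied with the abundance of a gene in cell bodies. Of the 15 members with a somatic mean from 100 to 1000, 10 (66.7%) had an axonal log2 fold change above 0, with a median of 0.35; for all 2565 such genes the share was 76.3% and the median 0.43. Of the 12 members with a somatic mean from 50 to 100, 3 (25%) were above 0 with a median of -0.26, against 65.2% and 0.25 for all 2544 genes. From 10 to 50 it was 8 of 17 members (47.1%) against 49.7% of all genes, and under 10 it was 6 of 20 (30%) against 29.7%. The members thus lay near all genes of like somatic level except in 1 bin of 12 genes, and no test was made of that bin.

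The second comparison asks whether cell bodies differ after treatment of their axons. In soma 0 of the 64 members were called, as were 0.00% of all 18995 genes with reads (DESeq2, Benjamini-Hochberg), and every adjusted p in the authors' deposited table was 1.00. No member had an unadjusted p under 0.05, against 2 of all genes (0.0105%). Member log2 fold changes in the authors' deposited table ran from -0.46 for Ntng2 to 0.47 for Efnb1, with 36 above 0 and 28 below, and the smallest unadjusted p was 0.387, for Efnb1. The median of the 44 members with a cell body mean of at least 10 was -0.03, as it was for all genes with such a mean. Sides did not overlap for 1 of these 44 (2.27%), against 15.9% of all recovered genes (7.51% with the positive side higher). That gene was Efnb1, at 29.0 and 50.5 normalized counts against 23.0 and 25.02. The share of 2.27% is bound to the split by sequencing depth given below, because a gene split by depth cannot be split by side. Efnb1 was also higher in both positive-side libraries of axons, but in neither table was the difference larger than its error. Among the other small p-values were Sema3e, at 50.5 to 141 normalized counts in the 4 libraries (the authors' log2 fold change -0.39 ± 0.51, SE, p = 0.444), and Sema3d, at 2.14 to 6.73 (0.42 ± 0.56, SE, p = 0.456).

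The difference between the compartments was tested per gene, taking the axonal minus the somatic log2 fold change over their joint standard error. This presumes that both tables have the same numerator, which their headers do not say. After adjustment over 18406 genes 0 of the 64 members were called, against 0.0326% of all genes, and the smallest adjusted p among members was 1.00 (Benjamini-Hochberg over a normal test). An unadjusted p under 0.05 was found for 1 member, against 2.60% of all genes. Computed from the authors' deposited values, it was Robo3, with a difference of -1.80 ± 0.87 (SE, p = 0.0381), followed by Sema3g with -1.97 ± 1.01 (p = 0.0523), Ntng2 with 1.58 ± 0.94 (p = 0.0948) and Sema3c with 1.28 ± 0.78 (p = 0.102).

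In soma the guidance genes separated by sequencing depth far more than by side, a comparison made after seeing the data. Each side has a deep library (size factors 2.97 and 3.74) and a shallow one (0.297 and 0.320). A gene whose depths do not overlap must therefore overlap between sides, so the counts by depth and by side are not independent. Of the 44 members with a cell body mean of at least 10, 40 (90.9%) had normalized counts that did not overlap between the 2 deeper and the 2 shallower libraries, against 70.4% of all genes. In 34 of them (77.3%) both shallower libraries were higher, against 31.9% of all genes, and in 6 both were lower, against 38.5%. The median log2 ratio of shallower over deeper libraries was 0.84 for members and -0.09 for all genes. At least 2-fold higher in the shallower libraries were 19 of the 44 members, against 14.8% of all genes. At least 2-fold lower were 2 of the 44, against 14.7%. All members together took 0.493% of the recovered reads in each deeper library and 0.822% and 0.846% in the shallower ones. The labels name no batch, and the part of library depth in this pattern was not tested.

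The pattern was shared by ligands and receptors and ran across many families, but not all. All 6 class 4 semaphorins, 5 of 5 class 5 to 7 semaphorins, 5 of 5 plexins, both neuropilins, 3 of 3 Eph B receptors, all 3 Slits, both netrin family members and all 5 Unc5 and Dcc receptors with such a mean were higher in both shallower libraries. In other families 0 of 3 class 3 semaphorins, 0 of 1 ephrins A, 1 of 3 ephrins B, 1 of 4 Eph A receptors and 1 of 2 Robos were. Sema4g had 13.5 and 11.2 normalized counts in the deeper libraries and 118 and 90.7 in the shallower ones, the order kept in the values that follow. Plxnb1, a receptor of Sema4d, had 51.2 and 29.4 against 226 and 235. Unc5a had 26.9 and 18.7 against 121 and 113, and Ntng2, the member that differed most, had 7.07 and 4.54 against 37.0 and 81.3. Among abundant receptors Plxna2 had 370 and 389 against 704 and 910, Nrp2 had 365 and 391 against 650 and 741, and Dcc had 75.8 and 67.6 against 152 and 175. The 6 members lower in both shallower libraries were Epha7, Sema3c, Robo2, Sema3e, Efna3 and Efnb2. Epha7 had 90.9 and 105 normalized counts in the deeper libraries and 26.9 and 37.5 in the shallower ones, and Sema3c had 422 and 613 against 253 and 238. Sema3a, Epha3, Epha6 and Efnb1 overlapped between depths.

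**Figure D3:**
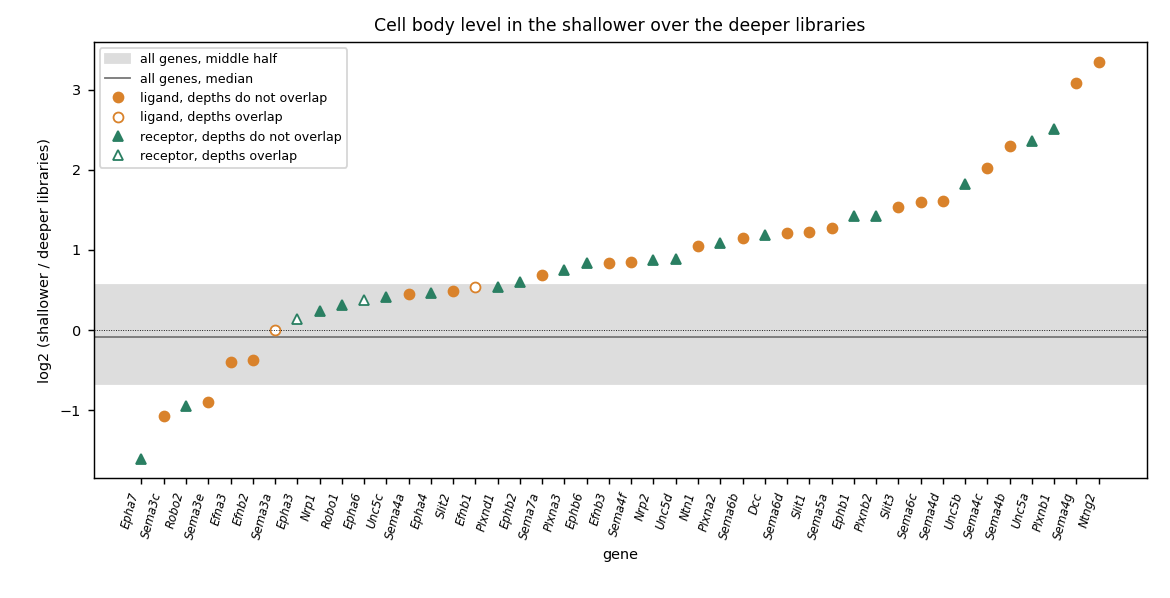
Log2 ratio of the mean normalized count in the 2 shallower over the 2 deeper cell body libraries (y axis) for the 44 guidance genes with a cell body mean of at least 10 (x axis, in rising order), circles for ligands and triangles for receptors, filled where the depths do not overlap. The grey band is the middle 50% of all genes and the grey line their median of -0.09; most members lie above the line, up to 3.35 for Ntng2.

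Within 1 depth the sides differed little. Between the 2 deeper libraries, 0 of the 44 members differed by 2-fold or more, against 0.698% of all genes, and the median log2 ratio of positive over negative side was 0.04. Between the 2 shallower libraries 4 of the 44 (9.09%) did, against 14.0% of all genes, with a median of -0.02.

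The third comparison sets the level of each transcript in axons beside that in cell bodies, as its share of the summed means of each table, since the tables were normalized separately. It is a description with no test, over the 52 members with a mean of at least 10 in either table. The members as a whole made up 0.0736% of the axonal and 0.138% of the somatic sum, and levels are compared only within a gene, because no gene lengths were at hand. The median log2 ratio of axonal over somatic share was -0.50 for members and -0.82 for all 11942 genes with such a mean. The member median was -1.17 without the 20 most abundant identifiers and 0.29 when scaled by the median ratio of genes with a mean of at least 10 in both tables, so its sign rests on the scaling. Shares differed 2-fold or more toward axons for 8 members (15.4%, against 10.7% of all genes) and toward soma for 13 (25%, against 42.5%). The 8 toward axons are the members with somatic means under 10, which passed only through their axonal level. In that bin their median was 2.36, against 3.82 for all 775 such genes. For somatic means from 10 to 50 the member median was -0.007, against -0.59 for all genes. From 50 to 100 it was -0.50 against -1.02, and from 100 to 1000 it was -1.11 against -1.39. Set against the deeper somatic libraries alone, the median of all 52 members was 0.24 with all genes at -0.78. Against the shallower ones alone it was -0.74 with all genes at -0.78.

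The lowest axonal shares relative to soma belonged to both neuropilins, the Eph A receptors Epha3 and Epha4, and 2 ephrins. Nrp1 had an axonal mean of 41.6 and a somatic mean of 409, a log2 ratio of -2.35, and Nrp2 had 63.2 and 537 (-2.14). Epha3 had means of 5.63 and 48.1 (-2.15), Efnb3 had 40.1 and 294 (-1.93), and Epha4 had 78.9 and 532 (-1.80). The lowest ratio was that of Efna3, at means of 0.903 and 28.3, which is a 16.2-fold lower share in axons. Efna3 lies between Efna1 and Efna4 in RefSeq, whose log2 ratios were 1.71 and -0.36 at somatic means under 10. With Plxna2, Plxna3 and Epha6, these 6 genes made up the 9 members below 0 under all 4 scalings and against the deeper and the shallower somatic libraries alike. Of the 15 members with a cell body mean of at least 100, 0 had a ratio above 0, near the 5.89% of all genes with a somatic mean from 100 to 1000. Their median of -1.11 lay above the -1.39 of those genes.

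At the other end, 8 members had a ratio above 0 under all 4 scalings and against either depth: Sema3b, Sema3f, Sema3g, Epha2, Ephb3, Robo3, Ntn4 and Ntng1. All 8 had somatic means under 10 and entered only through their axonal level, so a ratio above 0 was set by the filter. Robo3 had an axonal mean of 25.7 and a somatic mean of 0.909, a 54.6-fold higher share in axons with a 95% counting interval of 14.7 to 457. Sema3g rested on 1 somatic read, at 25.8-fold with an interval of 4.37 to 1042. Epha2 was 10.4-fold higher in axons (6.47 to 17.1), Ntn4 5.78-fold (3.97 to 8.52) and Ephb3 4.57-fold (2.999 to 7.16). All these intervals, those of Robo3 and Sema3g included, pool the reads of the 4 libraries of a table as equal. In the mean, 1 read of a shallower somatic library weighs more than 1 of a deeper one. The intervals thus cover counting error only and can be too narrow even for that. The choice of somatic libraries moved the ratios themselves. The log2 ratio of Robo3 was 8.54 against the deeper and 4.88 against the shallower libraries. That of Ephb3 was 3.66 and 1.48, and that of Epha2 was 2.92 and 4.06. Ntn4 moved less, at 2.32 and 2.78, and Sema3g stood at 3.69 against the shallower libraries and had no read in the deeper ones. For 28 of the 52 members the sign of the ratio changed with the scaling, among them the Slits (-0.73 to -0.48), Robo2 (-0.42), Plxnb2 (-0.18), Sema5a (-0.69) and Unc5c (0.49).

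**Figure D4:**
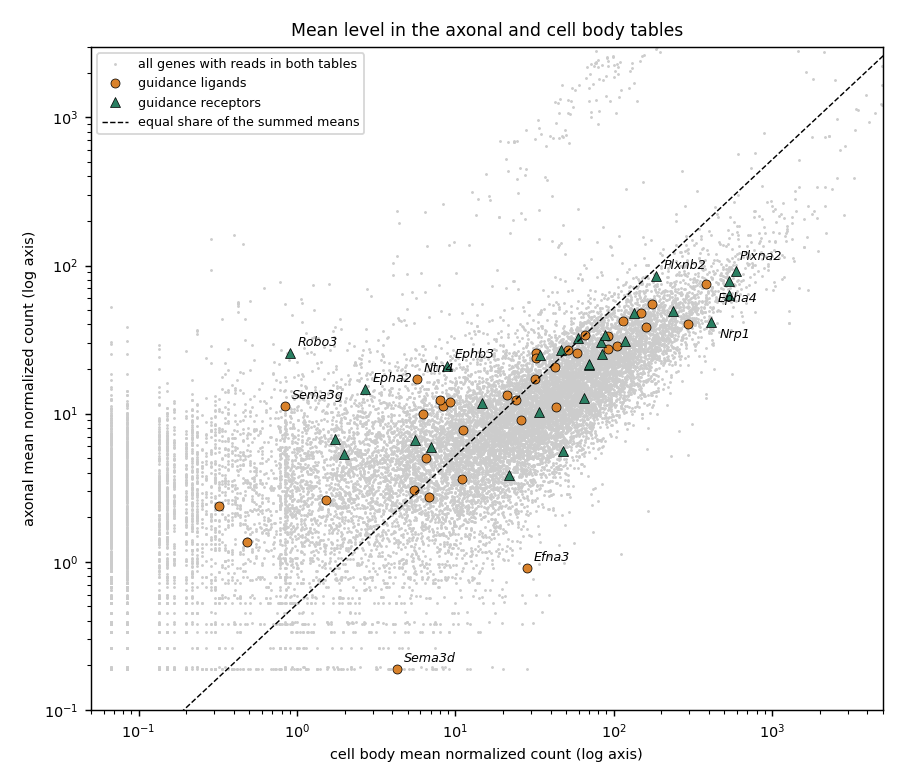
Mean normalized count of each gene in the axonal table (y axis, log axis) against the cell body table (x axis, log axis), grey dots for all genes with reads in both, orange circles for guidance ligands and green triangles for guidance receptors. The dashed line marks an equal share of the summed means; Robo3 and Sema3g lie far above it, and Nrp1, Epha4, Plxna2 and Efna3 below it.

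The wider pathway was read from a list of 91 further genes, of which 85 were found: cytoplasmic effectors, co-receptors and modulators, and cues of other families. In axons 0 of the 18 with an adjusted p were called in the authors' deposited table, against the 23.0% of all genes, and in soma 0 of the 85 were called and 0 had an unadjusted p under 0.05. Log2 fold changes in axons were above 0 for 32 of 52 cytoplasmic effectors, 11 of 18 co-receptors and modulators and 7 of 15 other cues, and above the shift of 0.44 for 15, 9 and 5 of them. Together 50 of the 85 were above 0, without a filter on the mean. Of all genes with reads 43.7% were above 0. At an axonal mean of at least 10, 57.7% of all genes were above 0 and 34.5% above the shift. An unadjusted p under 0.05 in axons was found for 5 of the 85 (5.88%), near the 4.45% of all genes. All 5 lay on the positive side, a direction that was not set against all genes with such a p. Boc, a co-receptor of Sonic hedgehog in guidance, had 53.7 and 118 normalized counts against 35.7 and 18.9. In the authors' deposited table its log2 fold change was 1.49 ± 0.62 (SE), with an adjusted p of 0.0663. Dpysl2, which carries semaphorin signals to microtubules, had 365 and 555 against 160 and 276 (the authors' log2 fold change 1.03 ± 0.44, SE, adjusted p 0.0714). Cdc42, a regulator of the actin cytoskeleton, had 43.8 and 66.5 against 9.45 and 28.4 (the authors' p = 0.0459). Flrt2, a ligand of Unc5 receptors, had 17.4 and 17.2 against 0 and 0 (the authors' p = 0.000880), and the chemokine Cxcl12 had 46.9 and 61.0 against 2.10 and 12.2 (the authors' p = 0.000973). All 5 were higher in both positive-side libraries, the libraries in which the astrocyte marker sum and the collagens Col1a1 and Col1a2 were also higher, and the part of those cells was not tested. Flrt2, Cxcl12 and Cdc42 had means too low for an adjusted p.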

How the data were processed

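RNA was sequenced on an Illumina MiSeq from TruSeq libraries, per the labels' protocols. Trim Galore, TopHat2, SAMtools and DESeq2 are named in the submitters' processing notes without versions. The sources used here do not give the genome build, annotation, counting program or strand setting, so reads of overlapping or antisense genes cannot be told apart. In RefSeq 5 members overlap a protein-coding gene and 25 a lncRNA. Each deposited table gives, per the file headers, a mean normalized count over 4 libraries (a signal the authors made by dividing counts by size factors). Beside it stand the authors' log2 fold change and standard error, a deposited Wald score, and the authors' p-value and adjusted p-value. Calls are the authors' adjusted p under 0.05, so no test was refitted. Deposited fold changes lay nearer 0 than the ratio of recovered side sums in 44 of 46 members in axons and 43 of 44 in soma.

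A deposited mean is a sum of 4 whole read counts, each times a unit fixed for its library. Solving it gave exactly 1 set of counts for 23412 of 23413 axonal and 16239 of 16312 somatic genes with means up to 100, and for all genes with means from 100 to 600. Larger means were not solved. The solver was tested on simulated data. The difference between compartments was a normal test adjusted by Benjamini-Hochberg over all genes with both values.

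Members and lists were chosen with earlier results of these data known. Genes named are the 2 of highest mean per family and table, the 5 of smallest p per table and for the difference, the 5 highest and 5 lowest level ratios, and the 5 pathway genes of smallest axonal p. Others were named after their values were seen. Alternatives were other sets of genes for adjustment, thresholds, centrings, filters, scalings and left-out libraries. Python 3.11.15, numpy 2.4.6, pandas 2.3.3, scipy 1.17.1, numba 0.67.0 and matplotlib 3.10.9 were used.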

Additional observations from a re-analysis of the deposited data

Results flagged for a closer look

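Sema3b stood out because its sides lay apart in opposite directions in the 2 compartments, though its somatic mean of 8.38 is under 10. In axons it had 6.80 and 4.70 normalized counts in its positive-side libraries against 15.8 and 17.6, with a deposited log2 fold change of -1.18. In soma it had 9.77 and 10.1 against 4.27 and 9.38, with a deposited log2 fold change of 0.33. The values of 10.1 and 9.38, from the shallower libraries, are 3 reads each, so their order comes from the size factors alone. A count of 0 allows as many reads. The difference between compartments, computed from the authors' deposited values, was -1.51 ± 1.07 (SE, p = 0.156), an unadjusted p that misses 0.05, and it presumes the same numerator in both tables.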

How the results depend on the processing

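The count of called members was 0 in axons, in soma and in the difference under every alternative tried. The smallest member adjusted p in axons was 0.993 over every gene with reads, 0.521 over genes with an axonal mean of at least 10, 0.992 over those with a somatic mean of 10 or more, and 0.122 after subtracting 0.44, the median of genes with a somatic mean of 100 or more. For the difference these minima were 1.00 over genes with a mean of at least 10 in both tables and 0.829 after centring. Of the pathway list, 2 genes (Boc and Dpysl2) had an adjusted p under 0.1 in the authors' deposited axonal table. The median axonal log2 fold change of members, -0.06, became 0.63 for the 6 members with a mean of at least 50 and -0.50 after centring, where all genes were at -0.29; leaving out 1 library gave -0.13 to 0.07 (0.0745 without negative-side library 1). The somatic median ranged from -0.41 to 0.59 when 1 library was left out, and was 0.04 in the deeper and -0.02 in the shallower libraries alone, which were settings chosen after seeing the data. The median level ratio, -0.50, was -1.17 without the 20 most abundant identifiers, which hold 53.1% of the axonal and 70.6% of the somatic sum, 0.29 scaled by the median ratio of genes, 0.24 against the deeper somatic libraries alone, and -0.63 to -0.26 leaving out 1 library. No paired analysis was possible because the deposited tables hold no column per sample and the recovered libraries carry no replicate number. For the same reason the fits with DESeq2 and edgeR were not run. The authors' table gives no axonal adjusted p to 55 members; adjusted over every gene with reads, all 64 had one and 0 were called, while 52 genes in all were.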
